A study of Mus musculus with 10 samples.

Results

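Tuft cells are rare chemosensory cells of the intestinal epithelium. They were followed here through 9 genes chosen by name, Dclk1, Trpm5, Sh2d6, Pou2f3, Alox5ap, Avil, Gfi1b, Lrmp and Ptgs1. All 9 were found by Ensembl ID among the 28987 genes of the deposited tables, and all 9 were among the 13056 genes that passed a minimum of 1 TPM in at least 2 libraries. Total RNA was taken from crypts of the ileum, the glands at the base of the villi where stem cells divide and Paneth cells sit. The groups were 5 libraries of mice described as overexpressing Stat5 in the intestinal epithelium (OE, genotype VilCreER;icS5, STAT5IEC+++), 2 libraries of mice without epithelial Stat5 (KO, VilCreER;Stat5, STAT5IEC-/-) and 3 libraries of controls (Ctrl, VilCreER;Stat5, STAT5+/+). The labels do not spell out icS5, and no control of the icS5 line was analysed here. Every genotype label carries VilCreER, a Cre recombinase driven by the villin promoter of the intestinal epithelium in a form that tamoxifen activates, and the labels give male sex, the strain C57Bl6 and an age of 12 weeks for every mouse. The design compares loss and gain of the transcription factor STAT5 with controls. The labels do not state whether each library is a different mouse, and the p-values therefore reflect only how far these libraries differ, which may be partly technical.

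Tuft cells detect luminal signals with a taste-like cascade that ends in the cation channel TRPM5, and they answer with interleukin-25, acetylcholine and eicosanoids such as leukotrienes. Interleukin-25 acts on innate lymphoid cells, whose interleukin-13 in turn drives the crypt to make more tuft and goblet cells. The transcription factor POU2F3 is required for tuft cells to form. In RNA from whole crypts, fewer tuft cells and less RNA per tuft cell cannot be told apart.

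Values are scaled TPM, which are the deposited TPM (transcripts relative to all transcripts of a library, per length) divided by a median-ratio factor for each library. Sequencing depth is unknown, because TPM do not retain the number of reads. Summed over Stat5a and Stat5b, the level was 3.04 to 8.34 scaled TPM in OE, 1.12 and 0.766 in KO, and 2.04 to 4.35 in Ctrl. The library labelled OE 1, at 3.04, lay within the Ctrl range, and every OE value below includes it unless stated. Ctrl 2 stood apart, with 83.7% of its TPM from mitochondrially encoded transcripts against 43.3% to 57.0% in the other 9 libraries. The summed TPM of 4 Y-linked genes was low in 3 libraries, with 0.250 for OE 3, 0.140 for OE 4 and 3.45 for Ctrl 3, against 32.3 to 131 in the other 7, although all mice are labelled male. Results are therefore also given without these libraries.

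RefSeq promoters (GRCm38.p6, from 250 bases before to 50 bases after the annotated start) were matched for 6 of the 9 genes, with 7 promoters because Dclk1 has 2 starts. Gene-level TPM cannot tell those 2 starts apart. Both strands were searched for the STAT5 motif TTCNNNGAA, the octamer ATTTGCAT bound by POU factors and the GFI1 motif AATCACNGC, which Gfi1b's product also binds. The 4 promoters below are shown because Trpm5 and Sh2d6 were among the pairs of genes with the most similar levels across libraries, and because Avil and Gfi1b held the only matches. Capitals mark a match.
Trpm5 promoter, chr7:143094593-143094892, minus strand: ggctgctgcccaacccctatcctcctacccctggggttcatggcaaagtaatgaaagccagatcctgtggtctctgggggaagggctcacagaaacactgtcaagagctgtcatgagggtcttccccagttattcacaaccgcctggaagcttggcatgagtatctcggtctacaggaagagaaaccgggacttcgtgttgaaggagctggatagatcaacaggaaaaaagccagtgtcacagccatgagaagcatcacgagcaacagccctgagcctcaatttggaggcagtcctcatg
Sh2d6 promoter, chr6:72519987-72520286, minus strand: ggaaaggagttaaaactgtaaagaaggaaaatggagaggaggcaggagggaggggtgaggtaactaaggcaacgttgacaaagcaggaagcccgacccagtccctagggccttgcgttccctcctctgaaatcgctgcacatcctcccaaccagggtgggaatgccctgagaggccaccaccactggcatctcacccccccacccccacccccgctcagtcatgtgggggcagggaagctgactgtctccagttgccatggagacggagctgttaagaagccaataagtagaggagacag
Avil promoter, chr10:127000459-127000758, plus strand: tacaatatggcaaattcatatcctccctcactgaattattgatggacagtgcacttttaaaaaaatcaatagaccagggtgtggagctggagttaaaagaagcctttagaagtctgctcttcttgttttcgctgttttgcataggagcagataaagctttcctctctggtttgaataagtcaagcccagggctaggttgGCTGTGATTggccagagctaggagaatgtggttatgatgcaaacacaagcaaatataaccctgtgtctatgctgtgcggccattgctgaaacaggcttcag
Gfi1b promoter, chr2:28621933-28622232, minus strand: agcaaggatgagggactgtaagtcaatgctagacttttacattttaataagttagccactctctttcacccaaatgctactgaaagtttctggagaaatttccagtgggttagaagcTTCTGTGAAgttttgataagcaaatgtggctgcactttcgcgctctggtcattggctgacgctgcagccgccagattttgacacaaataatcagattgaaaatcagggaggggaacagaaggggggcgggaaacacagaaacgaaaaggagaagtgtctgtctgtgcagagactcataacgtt
The Gfi1b promoter held 1 STAT5 match beginning 133 bases before the start, and the Avil promoter held 1 GFI1 match on its opposite strand beginning 51 bases before the start. The 2 matches do not overlap any other. A match was found in 8.30% of all 32851 promoters of the table for STAT5, in 1.74% for the octamer and in 0.919% for GFI1. No octamer match lay in these windows of the 6 genes. Letters in a window are a description and do not show that a factor binds there.

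Libraries of 1 group lay far apart, and for all 9 genes every group overlapped both others. Ctrl 3 had the highest level of 8 of the 9 genes, and KO 2 had the lowest level of 7. Every one of the 9 genes stood among its 2 lowest values in KO 2 and among its 3 highest in Ctrl 3 and OE 5. As deposited, Ctrl 3 was highest for all 9, and KO 2 and Ctrl 2 held the 2 lowest values of all 9. Gfi1b passed the minimum level only through Ctrl 3 and OE 5, which favours its high places there. This limit holds for Gfi1b in every count of the 9 genes below.

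**Figure D1:**
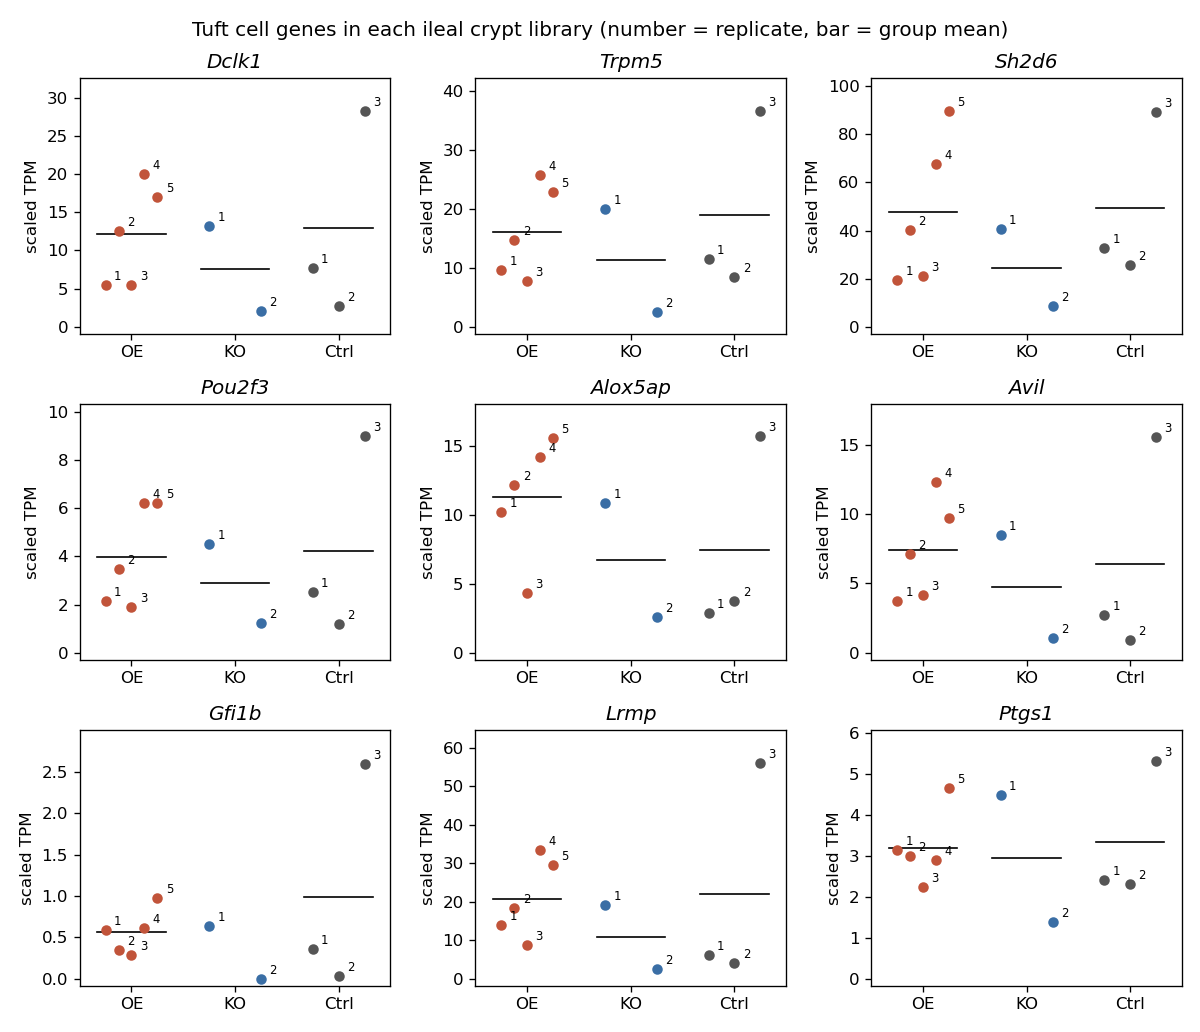
Scaled TPM (linear axes, scale set per gene) of each tuft cell gene in every library of OE, KO and Ctrl, with replicate numbers beside the points and a bar at the group mean (none for Gfi1b in KO, where 1 library is listed at 0). Ctrl 3 tops 8 of the 9 panels and KO 2 is lowest in 7.

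Of the 2 transcription factors, Pou2f3 (ENSMUSG00000032015, GRCm38 chromosome 9, 43123939 to 43210369) was at 2.13, 3.46, 1.89, 6.21 and 6.21 scaled TPM in the libraries labelled OE 1 to 5, whereas KO 1 and 2 had 4.50 and 1.25 and Ctrl 1 to 3 had 2.52, 1.18 and 8.98. OE 4, OE 5 and Ctrl 3 were high, KO 2 and Ctrl 2 low, and all 3 groups overlapped. Gfi1b (ENSMUSG00000026815, chromosome 2, 28609450 to 28621982), a zinc finger repressor known from erythroid cells and platelets as well as from tuft cells, was at 0.592, 0.342, 0.288, 0.615 and 0.978 in the libraries labelled OE 1 to 5, whereas KO 1 had 0.634, KO 2 was listed at 0, and Ctrl 1 to 3 had 0.354, 0.0287 and 2.60. It was the lowest of the 9 genes and passed the minimum level only through Ctrl 3 and OE 5, so it drops out of the tests when either is left out.

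Among genes of signalling and structure, Trpm5 (ENSMUSG00000009246, chromosome 7, 143069153 to 143094642), the calcium-activated cation channel of the taste cascade, was at 9.63, 14.8, 7.70, 25.8 and 22.9 scaled TPM in the libraries labelled OE 1 to 5, whereas KO 1 and 2 had 20.1 and 2.55 and Ctrl 1 to 3 had 11.6, 8.51 and 36.7. KO 1 thus lay above 3 of the 5 OE libraries and 2 of the 3 Ctrl libraries, and KO 2 lay below every other library. Dclk1 (ENSMUSG00000027797, chromosome 3, 55242364 to 55539068), a kinase that binds microtubules and is widely used to stain tuft cells, was at 5.50, 12.5, 5.47, 19.9 and 17.0 in the libraries labelled OE 1 to 5, whereas KO 1 and 2 had 13.2 and 2.06 and Ctrl 1 to 3 had 7.68, 2.73 and 28.2. It showed the same high and low libraries as Trpm5, with OE 1 and OE 3 together at the lower end of OE.

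Sh2d6 (ENSMUSG00000052631, chromosome 6, 72513641 to 72521707), which encodes a protein with an SH2 domain, had the highest mean level per length of the 9 genes. It was at 19.3, 40.4, 20.9, 67.7 and 89.8 scaled TPM in the libraries labelled OE 1 to 5, whereas KO 1 and 2 had 40.5 and 8.42 and Ctrl 1 to 3 had 32.8, 25.8 and 89.2. It was the only one of the 9 whose highest library was not Ctrl 3, with OE 5 slightly above it. Avil (ENSMUSG00000025432, chromosome 10, 127000709 to 127020994), an actin-binding protein of the villin family, was at 3.75, 7.13, 4.16, 12.3 and 9.70 in the libraries labelled OE 1 to 5, whereas KO 1 and 2 had 8.48 and 1.08 and Ctrl 1 to 3 had 2.73, 0.889 and 15.6. All 5 OE libraries lay above Ctrl 1 and Ctrl 2 and below Ctrl 3. Lrmp (ENSMUSG00000030263, chromosome 6, 145115653 to 145174934), a protein of the endoplasmic reticulum membrane first described in lymphoid cells, was at 13.9, 18.3, 8.71, 33.5 and 29.5 in the libraries labelled OE 1 to 5, whereas KO 1 and 2 had 19.1 and 2.66 and Ctrl 1 to 3 had 6.16, 4.20 and 55.9. Its highest library was 21.1-fold above its lowest, the widest range among the 8 genes with no library at 0, and again all 5 OE libraries lay between Ctrl 3 and the other 2 Ctrl libraries.

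Of the eicosanoid genes, Alox5ap (ENSMUSG00000060063, chromosome 5, 149264767 to 149288153), whose product hands arachidonic acid to 5-lipoxygenase for leukotriene synthesis, was at 10.2, 12.2, 4.38, 14.3 and 15.6 scaled TPM in the libraries labelled OE 1 to 5, whereas KO 1 and 2 had 10.9 and 2.63 and Ctrl 1 to 3 had 2.87, 3.78 and 15.8. Every OE library lay above Ctrl 1 and Ctrl 2, and none lay above Ctrl 3. Ptgs1 (ENSMUSG00000047250, chromosome 2, 36230426 to 36252272), cyclooxygenase 1 of prostaglandin synthesis, was at 3.15, 2.99, 2.25, 2.90 and 4.66 in the libraries labelled OE 1 to 5, whereas KO 1 and 2 had 4.49 and 1.39 and Ctrl 1 to 3 had 2.41, 2.31 and 5.32. It varied least, with a 3.82-fold range, and its libraries kept the same ends, Ctrl 3 high and KO 2 low.

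**Figure D2:**
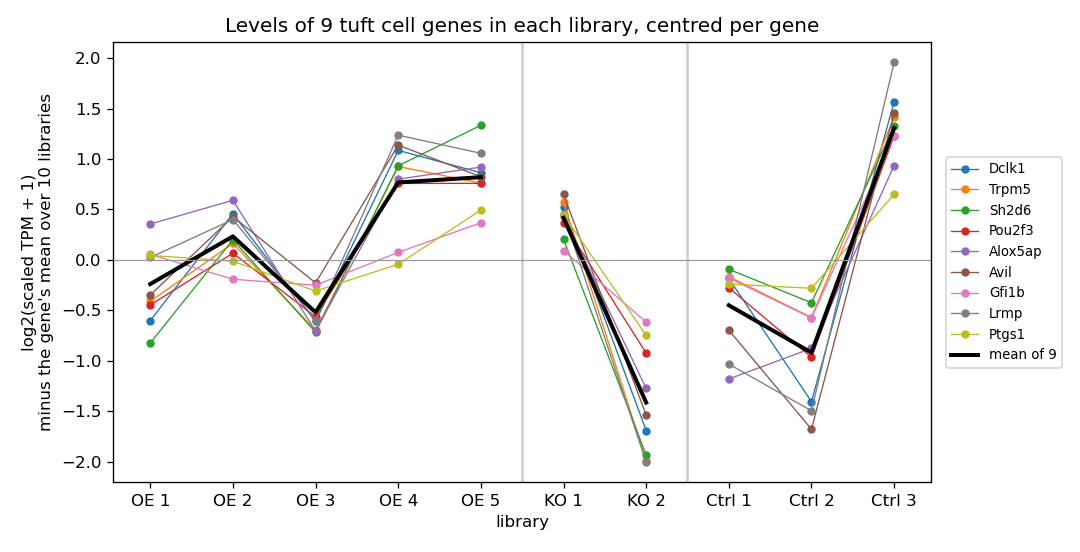
Level of each of the 9 genes in each library as log2(scaled TPM + 1) minus that gene's mean over the 10 libraries, with OE, KO and Ctrl side by side and the mean of the 9 genes in black. The mean of the 9 genes was highest for Ctrl 3 (1.31), OE 5 (0.82) and OE 4 (0.77) and lowest for KO 2 (-1.41) and Ctrl 2 (-0.92).

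The spread within groups was wide for most of the 9 genes. The SD of log2(scaled TPM + 1) pooled over the groups was 1.33 for Lrmp, 1.16 for Dclk1, 1.15 for Avil, 1.05 for Sh2d6, 1.04 for Trpm5, 0.908 for Alox5ap, 0.841 for Pou2f3, 0.573 for Gfi1b and 0.479 for Ptgs1. The median over all 13056 genes tested was 0.472. An SD at least as large as that of Lrmp was found in 3.93% of all genes, and one at least as large as that of Ptgs1 in 48.7%.

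Single pairs of libraries within a group have no replicates and are described only, on the log2(scaled TPM + 1) scale. KO 1 was at least 2-fold higher than KO 2 for 8 of the 9 genes, a direction and size found in 8.3% of all genes tested. Ctrl 1 was at least 2-fold lower than Ctrl 3 for 8 of the 9, against 7.64% of all genes, and Ctrl 2 was lower than Ctrl 3 by that much for 8 of the 9, against 20.2%. OE 3 was at least 2-fold lower than OE 4 and than OE 5 for 7 of the 9 genes each, against 7.85% and 8.05% of all genes. OE 4 and OE 5 did not differ 2-fold for any of the 9, against 8.49% of all genes higher and 7.67% lower in OE 4. Over the 10 pairs of OE libraries, between 0 and 7 of the 9 genes passed 2-fold in either direction, where 11.9% to 23.3% of all genes did.

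KO against Ctrl asks what loss of epithelial Stat5 did to these genes. All 9 genes had a negative log2 difference, none passed the threshold, and the intervals all included 0. Gfi1b reached the minimum level in no KO library, which favours its negative sign. A negative value was found for 46.7% of all genes and a positive one for 53%. In limma with Benjamini-Hochberg adjustment over 13056 genes, 0 of the 9 were called in either direction, and 0 of all genes were called higher (0%) or lower (0%). Stat5a and Stat5b themselves, with log2 differences of -0.84 and -0.75, were thus not called, nor were they in OE against Ctrl or OE against KO. A lack of calls therefore does not show a lack of change. At an unadjusted p under 0.05 there were 0 of the 9 and 452 of all genes (3.46%). KO and Ctrl libraries did not separate for any of the 9, where 9.09% of all genes lay wholly higher and 7.27% wholly lower in KO.

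Sh2d6 averaged 24.5 ± 22.7 scaled TPM over the 2 KO libraries and 49.3 ± 34.8 over the 3 Ctrl libraries (SD), with a log2 difference of -1.13 (95% interval -2.94 to 0.67), the largest in size of the 9. Trpm5 averaged 11.3 ± 12.4 in KO and 18.9 ± 15.4 in Ctrl, and its log2 difference was -0.93 (-2.72 to 0.85). Lrmp had a log2 difference of -0.58 (-2.84 to 1.67) and Dclk1 one of -0.58 (-2.57 to 1.42). Pou2f3 averaged 2.88 ± 2.30 in KO and 4.23 ± 4.17 in Ctrl, and its log2 difference was -0.27 (-1.77 to 1.23). The eicosanoid genes lay closest to 0 beside Avil (-0.14, -2.11 to 1.84), with -0.043 (-1.63 to 1.55) for Alox5ap and -0.19 (-1.16 to 0.77) for Ptgs1. Gfi1b was at -0.42 (-1.54 to 0.70). The smallest adjusted p of the 9 in limma was 0.943. The median of the 9 was -0.42, against 0.038 over all genes tested. The shared negative sign rested on single libraries, with medians of 0.41 when KO 2 was left out and 0.28 when Ctrl 3 was (over 8 genes, since Gfi1b is then not tested), but -1.23 when KO 1 was left out and -0.82 when Ctrl 2 was. As deposited, the median of the 9 was -0.23 while that of all genes was 0.38, and Alox5ap, Avil and Ptgs1 then had positive values.

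OE against Ctrl asks the same of overexpression. Of the 9 genes, 5 had positive and 4 negative log2 differences, against 52.1% positive and 47.9% negative of all genes tested. In limma 0 of the 9 were called, as were 0 of all genes higher (0%) and 0 lower (0%). At an unadjusted p under 0.05 there were 0 of the 9 and 797 of all genes (6.1%). No member had OE libraries wholly above or below Ctrl, where 2.21% of all genes were wholly higher and 1.52% wholly lower.

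Alox5ap averaged 11.3 ± 4.39 scaled TPM over the 5 OE libraries and 7.47 ± 7.20 over the 3 Ctrl libraries (SD), with the largest log2 difference of the 9, 0.77 (95% interval -0.50 to 2.04, adjusted p = 0.763 in limma). Avil averaged 7.41 ± 3.65 in OE and 6.39 ± 7.99 in Ctrl, and its log2 difference was 0.67 (-0.91 to 2.25). For Lrmp, at 20.8 ± 10.5 in OE and 22.1 ± 29.3 in Ctrl, the log2 difference was 0.61 (-1.19 to 2.42). The sign of Lrmp differs between the mean levels and the log2 values. Dclk1 (0.25) and Pou2f3 (0.12) had smaller positive values, and Trpm5 (-0.078), Sh2d6 (-0.084), Gfi1b (-0.15) and Ptgs1 (-0.0087) small negative ones. The median of the 9 was 0.12 against 0.021 over all genes. It was 0.88 without Ctrl 3 (over 8 genes, without Gfi1b), -0.36 without Ctrl 2, -0.016 without Ctrl 1, 0.26 without the library labelled OE 1, 0.29 without OE 3, 0.011 without OE 4 and 0.024 without OE 5 (again over 8 genes). As deposited, the medians were 0.39 for the 9 and 0.36 for all genes.

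Both Stat5 genotypes were compared directly by OE against KO. All 9 genes had positive log2 differences, as had 49.9% of all genes tested, where 50.1% were negative, and 0 of the 9 were called in limma, with 0 of all genes called higher (0%) or lower (0%). At an unadjusted p under 0.05 there were 0 of the 9 and 385 of all genes (2.95%). The groups overlapped for all 9, where 4.04% of all genes lay wholly higher and 4.43% wholly lower in OE. This comparison shares the KO libraries with KO against Ctrl, so its signs are no separate observation. Signs shared within a list were not particular to the tuft cell genes. In OE against KO all 10 T cell markers were positive, and 11 of 12 enterocyte markers were positive and 1 negative. Of 12 macrophage and dendritic cell markers tested there, 10 were negative and 2 positive. In KO against Ctrl 11 of the 12 enterocyte markers were negative and 1 positive, where 46.7% of all genes were negative. The positive sign of Gfi1b is again favoured by the minimum level, which it reached in no KO library.

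Lrmp averaged 20.8 ± 10.5 scaled TPM over the 5 OE libraries and 10.9 ± 11.6 over the 2 KO libraries (SD), with a log2 difference of 1.20 (95% interval -0.87 to 3.27). Sh2d6 averaged 47.6 ± 30.6 in OE and 24.5 ± 22.7 in KO, and its log2 difference was 1.05 (-0.60 to 2.70). Trpm5 (0.86), Dclk1 (0.82), Alox5ap (0.81) and Avil (0.81) had similar values, and Pou2f3 (0.39), Gfi1b (0.27) and Ptgs1 (0.18) lower ones. Every adjusted p of the 9 was 1 in limma. The median of 0.81, against -0.00062 over all genes, was 1.90 without KO 1 and -0.25 without KO 2, so its sign depended on which KO library was kept. KO 1 itself lay within the range of the OE libraries for all 9 genes.

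**Figure D3:**
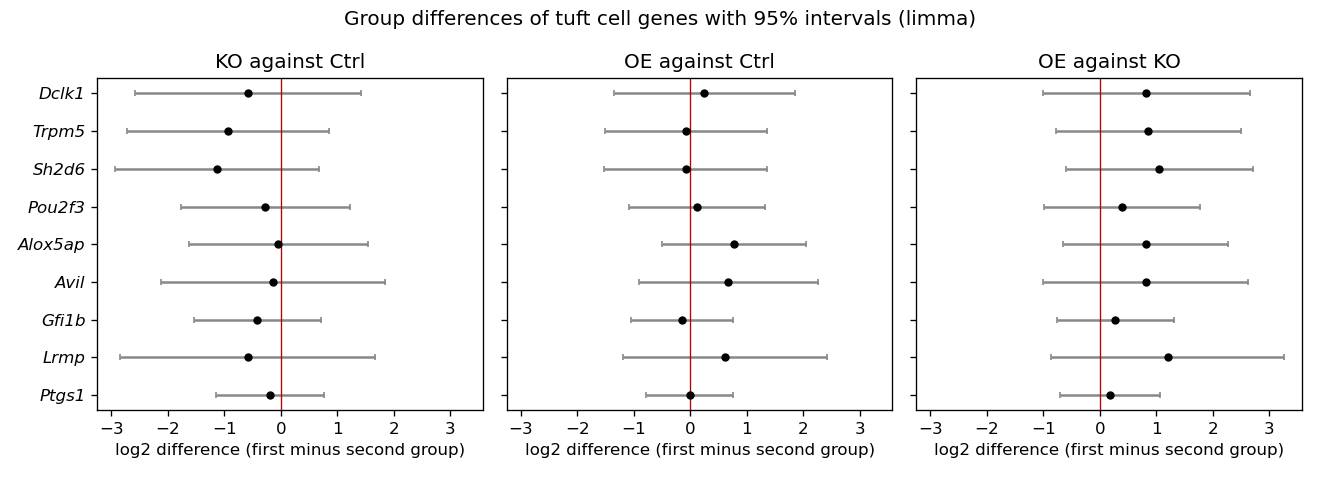
Log2 difference of each tuft cell gene on the log2(scaled TPM + 1) scale, with 95% intervals from limma, in 3 panels, which set KO against Ctrl, then OE against Ctrl, then OE against KO, each as the first group minus the second. Every interval crosses 0, from -1.13 for Sh2d6 in KO against Ctrl to 1.20 for Lrmp in OE against KO.

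**Figure D4:**
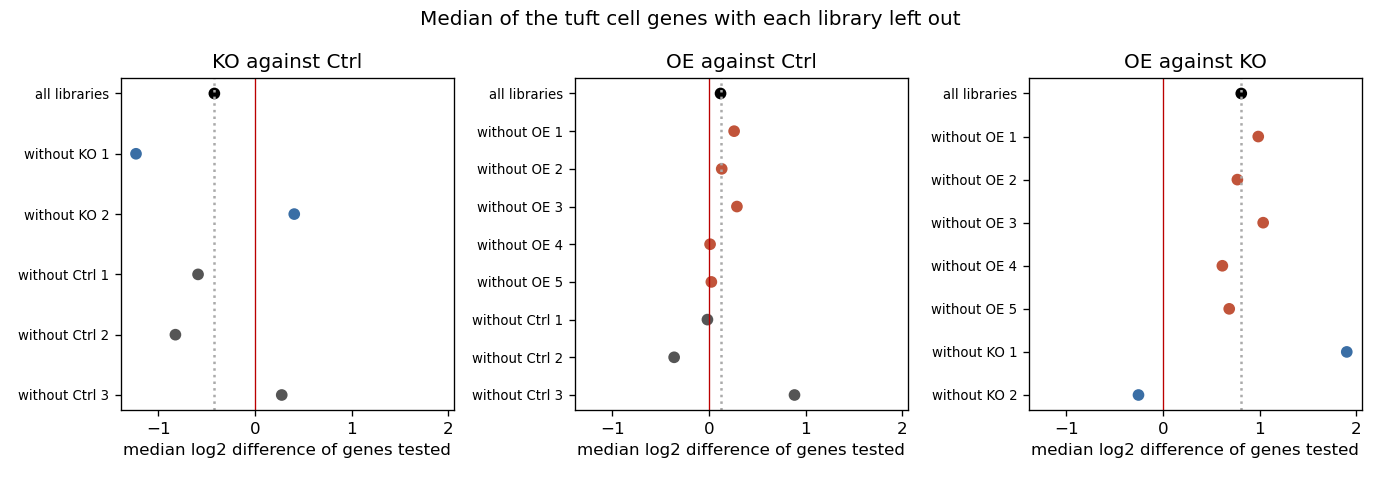
Median log2 difference of the 9 genes in each comparison with all libraries (top row) and with each OE, KO or Ctrl library left out in turn (8 genes without OE 5 or Ctrl 3, where Gfi1b is not tested). In KO against Ctrl the median of -0.42 becomes 0.41 without KO 2 and 0.28 without Ctrl 3, and in OE against KO the median of 0.81 becomes -0.25 without KO 2.

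Without Ctrl 3, OE 3 and OE 4, the libraries low in Y-linked TPM, Gfi1b was not tested and the median of the other 8 genes was 0.28 in KO against Ctrl, 0.89 in OE against Ctrl and 0.85 in OE against KO. Without Ctrl 2 and the library labelled OE 1, the medians were -0.82, -0.18 and 0.99 in the same order. None of these tuft cell genes was called in limma under these settings.

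Other genes known from tuft cells were taken from 6 lists of 74 genes, of which 63 were tested. In KO against Ctrl 50 of the 63 were negative and 13 positive, where 46.7% of all genes were negative, with a median of -0.35. In OE against Ctrl 42 were positive and 21 negative, where 52.1% of all genes were positive, with a median of 0.12. In OE against KO 53 were positive and 10 negative, where 49.9% of all genes were positive, with a median of 0.45. Some of the 63, among them Hmx3, Chat, Ptgs2 and Ly6g6f, reached the minimum of 1 TPM only in OE and Ctrl libraries. For these, that minimum favours a negative sign in KO against Ctrl and a positive one in OE against KO. In limma 0 of the 63 were called in any of the 3 comparisons, as were 0 of all genes (0%). At an unadjusted p under 0.05 there were 0 in KO against Ctrl, 0 in OE against Ctrl and 1 in OE against KO, where 3.46%, 6.1% and 2.95% of all genes passed.

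The taste cascade beside Trpm5 was only partly measured. Gng13 and Gnb3, G protein subunits, and the taste receptor genes Tas1r1 and Tas1r3 lay under the minimum level. Of the 10 tested genes of this list, 9 were negative in KO against Ctrl and 7 positive in OE against Ctrl. Its most abundant members were Atp2a3, a calcium pump of the endoplasmic reticulum, at 53.2, 48.4, 48.1, 101 and 86.6 scaled TPM in the libraries labelled OE 1 to 5, whereas KO 1 and 2 had 66.7 and 43.2 and Ctrl 1 to 3 had 53.9, 22.9 and 140, followed by the G protein subunit Gnai2 and the channel Trpm4. Atp2a3 was highest in Ctrl 3 and had log2 differences of -0.060 in KO against Ctrl and 0.19 in OE against Ctrl. Gnai2 (-0.18 and 0.037) and Trpm4 (-0.23 and -0.19) also lay near 0.

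Among 6 tested genes of eicosanoid synthesis, 4 were negative in KO against Ctrl and 4 positive in OE against Ctrl. Alox5, the 5-lipoxygenase that works with the product of Alox5ap, was at 2.36, 13.8, 4.94, 9.49 and 17.7 scaled TPM in the libraries labelled OE 1 to 5, whereas KO 1 and 2 had 6.46 and 0.578 and Ctrl 1 to 3 had 3.18, 7.87 and 16.9. It was low in KO 2 and high in OE 5 and Ctrl 3. Its log2 difference was -1.35 in KO against Ctrl, 0.041 in OE against Ctrl and 1.39 in OE against KO. Lta4h, leukotriene A4 hydrolase, which many cell types make, varied little, at 82.8 to 104 in OE, at 86.0 and 96.9 in KO 1 and 2, and at 89.6 to 121 in Ctrl. Pla2g4a, which releases arachidonic acid from membranes, had a log2 difference of 0.79 in KO against Ctrl and 0.55 in OE against Ctrl.

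For the output of tuft cells, Il25 lay under the minimum level and was listed at 0 in OE 2, OE 3, OE 4, KO 1 and Ctrl 2, with a highest value of 0.934 scaled TPM, in the library labelled OE 1. Of the 4 tested genes of output and of type 2 cytokine receptors, 3 were negative in KO against Ctrl and 2 in OE against Ctrl. Il13ra1, a chain of the interleukin-13 receptor, was the most abundant, at 30.9, 36.6, 20.3, 31.6 and 30.7 in the libraries labelled OE 1 to 5, whereas KO 1 and 2 had 28.7 and 50.3 and Ctrl 1 to 3 had 36.9, 51.2 and 34.5. Its highest libraries, Ctrl 2 and KO 2, were the 2 with the lowest mean of the 9 tuft cell genes. Il4ra had log2 differences of 0.29 in KO against Ctrl and 0.25 in OE against Ctrl, and Il17rb, the receptor of interleukin-25, of -0.54 and -0.53.

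Of 20 genes of cell structure and kinase signalling, 16 were negative in KO against Ctrl and 15 positive in OE against Ctrl. The most abundant was Krt18, an epithelial keratin rich in tuft cells, at 214, 273, 165, 315 and 417 scaled TPM in the libraries labelled OE 1 to 5, whereas KO 1 and 2 had 269 and 96.8 and Ctrl 1 to 3 had 163, 105 and 484. Its high and low libraries were those of the 9 genes, with log2 differences of -0.33 in KO against Ctrl and 0.38 in OE against Ctrl. Ptpn6, a phosphatase shared with blood cells, had log2 differences of -0.86 and -0.022, and the adaptor Fyb, also a gene of blood cells, 0.055 and 0.10. Espn, an actin bundler, was the only gene of this list whose KO and Ctrl libraries did not overlap. Of all genes, 9.09% lay wholly higher and 7.27% wholly lower in KO. Espn had a log2 difference of -0.97 (adjusted p = 0.943 in limma) and was named after its values were seen. KO 1 and 2 had 10.9 and 8.24 scaled TPM, against 12.0, 40.3 and 15.1 in Ctrl 1 to 3. KO 1 and Ctrl 1 were thus nearly equal, and Ctrl 2 was far above the other Ctrl libraries.

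Of the regulators, Hmx2 was listed at 0 in all 10 libraries, and 3 were tested. Spib, an ETS factor of tuft cells that B cells also express, was at 6.77, 8.61, 5.18, 21.6 and 19.9 scaled TPM in the libraries labelled OE 1 to 5, whereas KO 1 and 2 had 10.4 and 1.66 and Ctrl 1 to 3 had 5.36, 7.91 and 19.8. It was lowest in KO 2, with a log2 difference of -0.94 in KO against Ctrl and 0.15 in OE against Ctrl. Sox4, a factor of secretory progenitors, lay wholly higher in KO, at 10.39 and 13.04 against 10.36, 1.40 and 9.05 in Ctrl 1 to 3, so that KO 1 and Ctrl 1 were nearly equal, with a log2 difference of 0.96 (adjusted p = 0.943 in limma). Hmx3 was at most 2.28, in Ctrl 3. Of 20 tested surface and other genes, 16 were negative in KO against Ctrl and 12 positive in OE against Ctrl. Cd24a, a surface sialoglycoprotein, had log2 differences of -0.42 and 0.29, Aldh2 of -0.70 and -0.31, and Tmem176b of 0.31 and 0.13.

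Likeness between genes was measured as the root mean square difference of their log2(scaled TPM + 1) values over the 10 libraries, each centred on its own mean, so that a smaller value means a more similar profile. It is a description, and the libraries share their scaling. The 36 pairs among the 9 genes lay 0.25 to 0.87 apart, with a median of 0.50. Dclk1 and Avil were nearest to each other (0.25), as were Trpm5 and Sh2d6 (0.26). Lrmp was nearest to Avil (0.31). Pou2f3 was nearest to Cd24a (0.18), Alox5ap to Krt18 (0.33), Gfi1b to Tpm3 (0.21), a tropomyosin, and Ptgs1 to Evpl (0.18), an envoplakin. For Gfi1b, whose low levels the added 1 TPM compresses, and for Ptgs1, the median distance to all 8894 and 8893 genes compared was also smaller, at 0.66 and 0.59, than the 0.83 to 1.28 of the other 7.

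The 5 genes nearest to the mean profile of the 9 were Krt18 (0.16), Smim3 (0.20), Cd24a (0.21), Vrk3 (0.27) and Pik3cg (0.30), where the median of 8886 genes was 0.92. Krt18, Cd24a and Pik3cg stand on the lists of other tuft cell genes. Vrk3, a protein of the vaccinia-related kinase family, was at 12.3, 16.7, 11.6, 22.9 and 17.6 scaled TPM in the libraries labelled OE 1 to 5, whereas KO 1 and 2 had 16.7 and 6.49 and Ctrl 1 to 3 had 13.0, 6.13 and 31.6. Its high and low libraries were those of the 9 genes.

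Several of the 9 genes are also made by other cells, so marker lists of those cells were summed in each library. The 10 B cell markers summed to 22.5 to 228 scaled TPM in OE, 33.9 and 13.9 in KO, and 5.61 to 31.6 in Ctrl. Lrmp, first described in lymphoid cells, had its 3 highest levels in Ctrl 3, OE 4 and OE 5. The B cell markers summed to 228 in OE 4 and 77.1 in OE 5, their 2 highest sums, and to 5.61 in Ctrl 3, their lowest. In OE against Ctrl all 10 B cell markers had positive log2 differences, where 52.1% of all genes did, with a median of 1.49. Of these markers 7 passed an unadjusted p under 0.05, where 6.1% of all genes did, but 0 were called in limma. The 14 macrophage and dendritic cell markers summed to 49.1 to 135 in OE, 94.0 and 54.8 in KO, and 49.9 to 77.1 in Ctrl, with 49.9 in Ctrl 3. The 10 markers of platelets and erythroid cells, which also use Gfi1b, summed to 16.3 to 123 in OE, 31.6 and 55.2 in KO, and 13.4 to 36.8 in Ctrl, with 20.6 in Ctrl 3. None of the 10 markers of enteric neurons and glia, cells that can express Avil and Dclk1, passed the minimum level, their sums were 0.868 to 2.47 in OE, 0.865 and 0.896 in KO, and 1.02 to 1.54 in Ctrl, and Sox10 was listed at 0 in every library. The 12 mast cell and granulocyte markers, which share leukotriene synthesis, summed to 18.5 to 58.5 in OE, 27.3 and 12.5 in KO, and 8.32 to 39.7 in Ctrl, and Tpsb2 was listed at 0 in every library. Their 3 highest sums, 58.5 in OE 4, 50.4 in OE 5 and 39.7 in Ctrl 3, and their 2 lowest, 12.5 in KO 2 and 8.32 in Ctrl 2, fell in the same libraries as those of the 9 tuft cell genes. KO against Ctrl compares group means gene by gene, which is a different measure from these sums. There 6 of the 7 tested markers of this list were positive and 1 negative, and 0 were called in limma. The median of these markers was 0.47, where 53% of all genes were positive. The 10 T cell markers summed to 37.8 to 140 in OE, 22.0 and 38.1 in KO, and 28.1 to 121 in Ctrl, and the 10 fibroblast markers to 18.0 to 115 in OE, 78.6 and 24.1 in KO, and 12.4 to 25.3 in Ctrl. Positive values in OE against Ctrl were not particular to the B cell markers. All tested markers of T cells (10), macrophages and dendritic cells (12), mast cells and granulocytes (7) and platelets and erythroid cells (3) were positive there. Of the 8 tested fibroblast markers 7 were positive and 1 negative. The part of these cells in the levels of the 9 genes was not tested.

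The 7 pan-epithelial markers summed to 3769 to 6031 scaled TPM in OE, 5128 and 4590 in KO, and 3305 to 5157 in Ctrl. Divided by the geometric mean of these 7 genes, the median of the 9 tuft cell genes was -0.42 in KO against Ctrl, 0.0021 in OE against Ctrl and 0.74 in OE against KO, where all genes had medians of -0.027, -0.12 and -0.079.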

How the data were processed

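Total RNA of ileal crypts was sequenced single-end in 10 libraries. Crypts were released by shaking in PBS containing EDTA (10 mM, 30 min, 37 C), per the labels' protocols. The authors deposited TPM per Ensembl gene, per the file headers in 9 libraries, and the header of Ctrl 1 names no unit, which was taken from the other libraries and its values. Per the submitters' processing notes TopHat, Cufflinks and mm10 were used, and which tool gave the TPM is not given in the sources used here. Symbols and coordinates came by ID from GENCODE M21 (GRCm38, also called mm10), which named 27458 of 28987 IDs.

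TPM were divided by median-ratio factors over the 11146 genes above 0 in every library. Genes with at least 1 TPM in at least 2 libraries, 13056 in all, were tested as log2(scaled TPM + 1) over all 10 libraries, with 3 group means and limma's trend option (limma 3.58.1, R 4.3.3). Differences are on that scale, which understates changes of low genes such as Gfi1b. The call threshold was an adjusted p of 0.05. The fit was tested on simulated data. Alternatives covered scaling, pseudocounts of 0.1 and 5, filters, fits, a replicate block and left-out libraries. Scaling to pan-epithelial genes, and leaving out Ctrl 2 with the library labelled OE 1, were chosen after seeing the data. The 9 genes, the lists and the naming rule were chosen with earlier results of these data known. The rule named all 9 genes, the 3 most abundant genes of each other tuft cell list, and the genes of nearest profile. Kctd12, on the list of surface genes, had no ID matched.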

Additional observations from a re-analysis of the deposited data

Results flagged for a closer look

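Among the 5 OE libraries, Tmem176b, a membrane protein gene on the list of other tuft cell genes, had 85.5 scaled TPM in OE 5, against 47.4 to 58.4 in the other 4. The gap to the nearest library was 0.711 of the whole range, past the critical value of 0.71. The 9 tuft cell genes and 18 other named genes were examined in this way, 27 groups of 5 libraries, and chance flags about 1 in 20. No library stood apart within OE for any of the 9.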

How the results depend on the processing

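In limma, 0 of the 8 or 9 tuft cell genes tested were called under any alternative tried, and no adjusted p of theirs fell below 0.397. This says little of stability, since the intervals are wide. Over all genes, where 0 were called, KO against Ctrl gave 5 calls without a filter, 1 with only the 2 groups compared and 0 to 2 with a library left out (2 without KO 1). OE against Ctrl gave 1 call with only the 2 groups compared, 3 under the replicate block and 1 without the 3 libraries low in Y-linked TPM. OE against KO gave 7 without a filter, 1 without those 3 libraries, 1 without Ctrl 2 and the library labelled OE 1, and 0 to 2 with a library left out (2 without KO 1, 1 without OE 3 and 1 without the library labelled OE 1). With 1 library left out, the median of the genes tested (9, or 8 without OE 5 or Ctrl 3) ranged over -1.23 to 0.41 in KO against Ctrl, -0.36 to 0.88 in OE against Ctrl and -0.25 to 1.90 in OE against KO.

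In KO against Ctrl the sign turned with values as deposited for Alox5ap (0.31), Avil (0.0047) and Ptgs1 (0.087), with library weights for Alox5ap (0.30). It also turned under the replicate block for Alox5ap (0.088) and Avil (0.26), without the 3 libraries low in Y-linked TPM for Dclk1 (0.21), Pou2f3 (0.34), Alox5ap (0.61), Avil (0.74), Lrmp (0.49) and Ptgs1 (0.11). With 1 library left out in KO against Ctrl, the log2 differences ranged over -1.68 to 0.53 for Dclk1, -2.22 to 0.35 for Trpm5, -2.20 to -0.064 for Sh2d6, -0.92 to 0.37 for Pou2f3, -0.90 to 0.81 for Alox5ap, -1.23 to 0.96 for Avil, -0.79 to -0.066 for Gfi1b, -1.81 to 0.64 for Lrmp and -0.79 to 0.41 for Ptgs1. The Gfi1b range holds no fit without Ctrl 3, its highest library, so its constant sign does not show stability. Ctrl 1 and 2 had 0.354 and 0.0287 scaled TPM of Gfi1b, against 0.634 and 0 in KO 1 and 2. In OE against Ctrl the sign turned with values as deposited for Trpm5 (0.33), Sh2d6 (0.39) and Ptgs1 (0.25), after quantile normalization for Pou2f3 (-0.068). It also turned with a pseudocount of 0.1 for Gfi1b (0.20) and Ptgs1 (0.0018), with library weights for Trpm5 (0.041), Sh2d6 (0.079) and Ptgs1 (0.10). It also turned under the replicate block for Dclk1 (-0.24) and Pou2f3 (-0.31), without the 3 libraries low in Y-linked TPM for Trpm5 (0.54), Sh2d6 (0.50) and Ptgs1 (0.44). It also turned without Ctrl 2 and the library labelled OE 1 for Dclk1 (-0.24) and Pou2f3 (-0.22). With 1 library left out in OE against Ctrl, the log2 differences ranged over -0.45 to 1.03 for Dclk1, -0.48 to 0.52 for Trpm5, -0.43 to 0.44 for Sh2d6, -0.36 to 0.73 for Pou2f3, 0.36 to 1.42 for Alox5ap, -0.016 to 1.55 for Avil, -0.51 to -0.082 for Gfi1b, -0.038 to 1.69 for Lrmp and -0.17 to 0.30 for Ptgs1. Here too the Gfi1b range holds no fit without Ctrl 3, and its OE libraries lay at 0.288 to 0.978 scaled TPM. In OE against KO the sign turned under the replicate block for Pou2f3 (-0.28), Avil (-0.00019), Gfi1b (-0.10) and Ptgs1 (-0.040). With 1 library left out in OE against KO, the log2 differences ranged over -0.28 to 1.93 for Dclk1, -0.43 to 2.14 for Trpm5, -0.020 to 2.12 for Sh2d6, -0.25 to 1.04 for Pou2f3, -0.048 to 1.67 for Alox5ap, -0.29 to 1.90 for Avil, -0.081 to 0.63 for Gfi1b, -0.030 to 2.43 for Lrmp and -0.41 to 0.78 for Ptgs1.

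Libraries with the same number did not deviate together (correlations across genes of -0.18 to 0.063), so the numbers only name them. Under the replicate block the medians of the 9 were -0.18 in KO against Ctrl, -0.24 in OE against Ctrl and 0.029 in OE against KO. The cause of these changes was not tested. Gfi1b could not be tested without Ctrl 3, without OE 5 or with a minimum of 5 TPM. With only the 2 groups compared, it was also not tested in KO against Ctrl and in OE against KO. TPM keep no depth, so levels near that of Gfi1b have unknown counting error.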

Other observations

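Goblet, enteroendocrine and Paneth cells are the other secretory lineages of the crypt, and their marker sums were set beside those of the 9 tuft cell genes. The tuft cell genes summed to 68.2, 112, 55.8, 183 and 196 scaled TPM in the libraries labelled OE 1 to 5, to 122 and 22.0 in KO 1 and 2, and to 69.1, 49.5 and 258 in Ctrl 1 to 3. The 8 goblet cell markers summed to 4115, 1399.9, 3416, 4619 and 4281 in the libraries labelled OE 1 to 5, whereas KO 1 and 2 had 2031 and 3102 and Ctrl 1 to 3 had 2905, 1753 and 5223. Their 3 highest libraries, Ctrl 3, OE 4 and OE 5, were also the 3 highest for the tuft cell genes, and Ctrl 2 was low for both, but KO 2 lay above KO 1 and OE 2 was lowest. The 10 enteroendocrine markers summed to 32.1, 21.4, 58.6, 19.0 and 37.7 in the libraries labelled OE 1 to 5, whereas KO 1 and 2 had 30.9 and 46.5 and Ctrl 1 to 3 had 50.01, 41.3 and 27.7. OE 3 was highest and OE 4 lowest for these. The 11 Paneth cell markers summed to 3060, 1856, 6618, 2669 and 6079 in the libraries labelled OE 1 to 5, whereas KO 1 and 2 had 1352 and 4274 and Ctrl 1 to 3 had 3345, 821 and 3190. Ctrl 2 was lowest and OE 3 highest for the Paneth markers, and OE 5 was high for both these and the tuft cell genes. These are sums over genes in single libraries and carry no test.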
